A study of Mus musculus with 6 samples.

Results

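Expression was examined for 6 genes grouped here as surface proteins and enzymes of the gastric pit cell: Ctse, Cym, Vsig1, Tspan8, Anxa10 and Sult1c2. They were taken by symbol from the expression table of the series, which holds 17256 genes, and 6 of 6 were found. In the mouse genome (GENCODE M21) Ctse (gene ID 13034) is on chromosome 1, Cym (229697) on 3, Anxa10 (26359) on 8, Tspan8 (216350) on 10, Sult1c2 (69083) on 17 and Vsig1 (78789) on X. RNA was sequenced from the epithelium of the antrum, which is the part of the stomach next to the duodenum, of C57BL/6 mice. Every animal had first received MNNG, an alkylating carcinogen, and a drug that the labels spell Ranitine for 20 weeks, which is the study's model of atrophic gastritis. A group of 3 libraries came from mice then given vehicle for 2 weeks, and a group of 3 from mice given PEEPA-P5, known only by that code name, by gavage for 2 weeks. Mice without gastritis were not analysed here, so each difference is between treated and untreated gastritis. Age and sex are not given in the labels, and separate mice for the libraries of a group are not stated. The p-values therefore describe the spread between libraries, which may be technical.

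Pit cells, or surface mucous cells, line the stomach surface and its shallow pits, and they coat it with gel-forming mucin, trefoil peptide and gastrokines. Beside these secreted products they carry a characteristic set of proteases, membrane proteins and cytosolic enzymes. Ctse encodes cathepsin E, an aspartic protease of the pepsin family kept in endosomal compartments. Cym encodes chymosin, the milk-clotting relative of pepsin known from suckling mammals. Vsig1 is an immunoglobulin-type adhesion protein of cell junctions in stomach epithelium, and Tspan8 is a tetraspanin, a membrane protein that gathers integrins and other partners into patches. Anxa10 belongs to the annexins, which bind membrane phospholipids, and is known as a stomach-enriched member. Sult1c2 is a cytosolic sulfotransferase, which moves sulfate from the donor PAPS onto small phenolic molecules and drugs.

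Library totals ran from 16388852 to 16903559 expected counts. Of the libraries, those numbered 3 stood apart. Gast, the gastrin gene of antral G cells, was at 610 TPM, a level scaled to transcript length, in vehicle 3 and 199 TPM in PEEPA-P5 3, against 4990 to 9492 TPM in the others. Vehicle 3 had the highest summed level of parietal cell markers, at 6716 CPM, counts relative to the scaled library total, and PEEPA-P5 3 the lowest, at 31.2 CPM. For fibroblast markers PEEPA-P5 3 was at 25.1 CPM, against 153 to 376 CPM in the 3 vehicle libraries. PEEPA-P5 1 and 2 lay within that vehicle range, at 208 and 315 CPM. The groups did not overlap in the summed level of 4 of 11 marker lists, beside 20.4% of all single genes tested. Only 1 of 5 exocrine pancreas markers and 3 of 6 squamous markers reached 1 CPM in any library. Parietal markers were at 779 to 6716 CPM with vehicle and 31.2 to 769 CPM with PEEPA-P5, and exocrine pancreas markers at 3.91 to 15.9 and 0 to 1.81 CPM. Intestinal markers were at 1122 to 1747 CPM with vehicle and 1823 to 2410 CPM with PEEPA-P5, and squamous markers at 3.39 to 5.004 and 8.47 to 13.4 CPM, with Krt5 at no more than 0.03 TPM anywhere. The part of these shifts in the values below was not tested. In whole tissue, fewer cells of a type and less RNA per cell cannot be told apart.

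Of the 6 genes, 5 were abundant transcripts and Cym was close to absent, at a mean of 0.39 TPM. Muc5ac, a pit cell mucin, was at 1568 to 2049 TPM, so these values do not mark Cym as a pit cell gene. Of the 6, Ctse had the highest level, at 2867 ± 579 TPM with vehicle and 3098 ± 227 TPM with PEEPA-P5 (SD, n = 3 each). That ranked it 29th of all genes by mean TPM. Anxa10 followed at 1067 ± 158 and 1310 ± 169 TPM, then Tspan8 at 971 ± 148 and 1122 ± 26.0 TPM. Vsig1 stood at 558 ± 78.1 and 497 ± 41.8 TPM, and Sult1c2 at 564 ± 71.8 and 453 ± 21.7 TPM. Over the 6 libraries the ranges of Ctse and Anxa10 were separate, and so were those of Tspan8 and Vsig1. The ranges of the neighbours Anxa10 and Tspan8 overlapped, although Anxa10 was above Tspan8 in 6 of 6 libraries. Vsig1 and Sult1c2 were at like levels, with Vsig1 above in 3 of 6 libraries. The share of Ctse in all counts ran from 0.428% (vehicle 3) to 0.655% (PEEPA-P5 3).

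**Figure D1:**
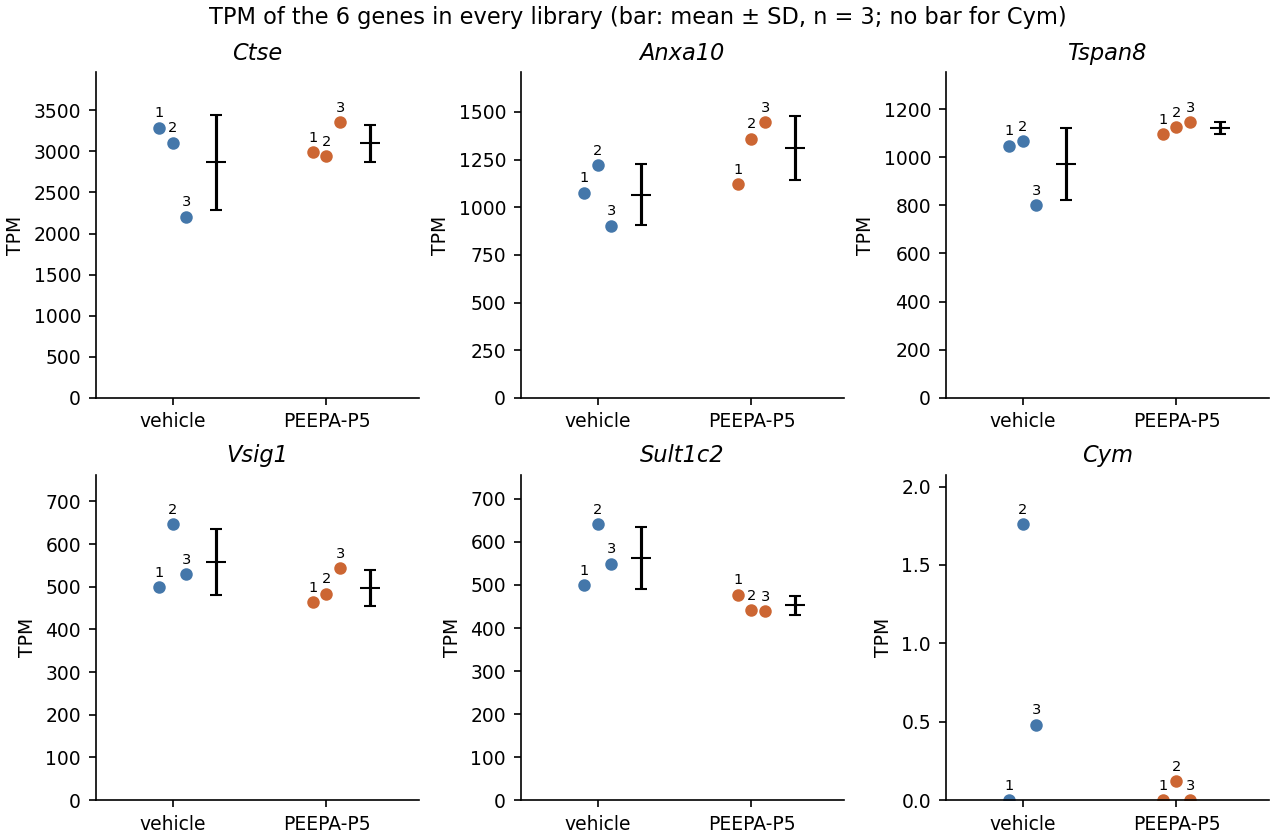
TPM of each gene (vertical axes, each starting at 0) in the 3 vehicle and 3 PEEPA-P5 libraries, with the library number above each point and the mean ± SD beside it, except for Cym. The PEEPA-P5 points of Tspan8 lie above all vehicle points (lowest 1095 against highest 1066 TPM) and those of Sult1c2 below them (highest 478 against lowest 499.9 TPM).

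The RefSeq promoter table (GRCm38.p6) held 5 of the 6 genes, and 4 promoters are shown for the genes that the values below turn on. On the scale relative to other pit cell genes, which were themselves mostly higher with PEEPA-P5, Vsig1 and Sult1c2 came out lower. On that scale Anxa10 and Tspan8 differed by less than 1 pooled SD. The stretch is the 250 bases before the annotated start, written 5′ to 3′ on the strand of the gene. It is chr8:62123194-62123443 on the minus strand for Anxa10, chr10:115817034-115817283 on the plus strand for Tspan8, chrX:140907358-140907607 on the plus strand for Vsig1 and chr17:53845959-53846208 on the minus strand for Sult1c2. Capitals mark every match, on either strand, to a motif of 6 letters: TATAAA for the TATA box, AGATAA for the factors of the GATA family, TGTTTA for forkhead factors, ATTGTT for SOX factors and GTTAAT for HNF1.
Anxa10: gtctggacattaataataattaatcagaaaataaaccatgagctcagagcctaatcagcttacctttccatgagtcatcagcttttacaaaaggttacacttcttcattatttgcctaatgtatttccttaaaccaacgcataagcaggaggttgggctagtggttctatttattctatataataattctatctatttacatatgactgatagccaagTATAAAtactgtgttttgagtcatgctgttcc
Tspan8: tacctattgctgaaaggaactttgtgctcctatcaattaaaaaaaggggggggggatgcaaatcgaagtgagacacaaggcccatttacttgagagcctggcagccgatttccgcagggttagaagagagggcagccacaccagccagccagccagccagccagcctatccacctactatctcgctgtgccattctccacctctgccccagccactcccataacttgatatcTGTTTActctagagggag
Vsig1: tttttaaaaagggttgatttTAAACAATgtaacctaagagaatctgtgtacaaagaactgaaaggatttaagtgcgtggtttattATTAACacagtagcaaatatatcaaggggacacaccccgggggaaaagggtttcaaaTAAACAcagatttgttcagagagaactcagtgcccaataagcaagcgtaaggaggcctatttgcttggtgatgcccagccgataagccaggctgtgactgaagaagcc
Sult1c2: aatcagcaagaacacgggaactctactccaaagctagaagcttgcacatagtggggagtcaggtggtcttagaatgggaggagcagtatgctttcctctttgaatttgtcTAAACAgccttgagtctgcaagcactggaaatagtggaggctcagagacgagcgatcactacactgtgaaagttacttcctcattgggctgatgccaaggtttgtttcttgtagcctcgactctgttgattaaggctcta
The Anxa10 stretch held TATAAA at position -32 from the start and no other of these motifs. The Tspan8 stretch held a forkhead match at position -18, and the Sult1c2 stretch a forkhead match at position -140 on the opposite strand. Vsig1 held the most matches, 4, all on the opposite strand: forkhead at -230 and -108, SOX at -228, which overlaps the first of them, and HNF1 at -165. Among 32851 promoter stretches of the same length, 12.4% held the TATA motif, 12.03% the forkhead, 9.99% the GATA, 9.42% the SOX and 6.43% the HNF1 motif. GC content was 33.6% for Anxa10, 41.2% for Vsig1, 46.4% for Sult1c2 and 52.4% for Tspan8, and the median over all promoters was 52.4%. These matches describe letters and are not measured binding sites.

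The comparison asks how gastritis epithelium differs with and without PEEPA-P5. Of the 5 genes that passed the expression filter, Anxa10 and Tspan8 had a higher CPM in every PEEPA-P5 library than in any vehicle library, Ctse was slightly higher, Vsig1 was nearly level and Sult1c2 was lower. None passed the adjusted threshold in edgeR's quasi-likelihood test, where 0 of 13071 genes (0%) did and the smallest adjusted p was 0.412. Limma-voom also called 0 genes, and DESeq2 called 110 (0.834% of those it adjusted), none of them among the 5. At an unadjusted p under 0.05, 2 of the 5 were higher and 0 lower, beside 1576 of 13071 genes (12.1%), of which 774 were higher (5.92%) and 802 lower (6.14%). That split moves with the scaling, to 537 higher and 959 lower with upper-quartile factors, 313 and 1015 with total counts alone, and 266 and 1029 on log2(TPM + 1). The groups did not overlap in CPM in 2 of the 5, beside 20.4% of all genes. The log2 difference was above 0 in 3 of the 5, beside 49.4% of all genes tested. Its median over the 5, which is the value of Ctse, was 0.23, beside 0.00 (-0.0047) over all genes tested. When single libraries were left out, that median ran from 0.098 (without PEEPA-P5 3) to 0.354 (without vehicle 1). Without both libraries numbered 3 it was 0.0029. With 1 library left out, 0 of the 5 had an unadjusted p under 0.05 without vehicle 2, vehicle 3 or PEEPA-P5 3, and 1 without vehicle 1, PEEPA-P5 1 or PEEPA-P5 2. None of the 5 was higher at such a p with the replicate number as a block, and with total counts alone or on log2(TPM + 1) the 1 gene that reached it was Sult1c2, which was lower.

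**Figure D2:**
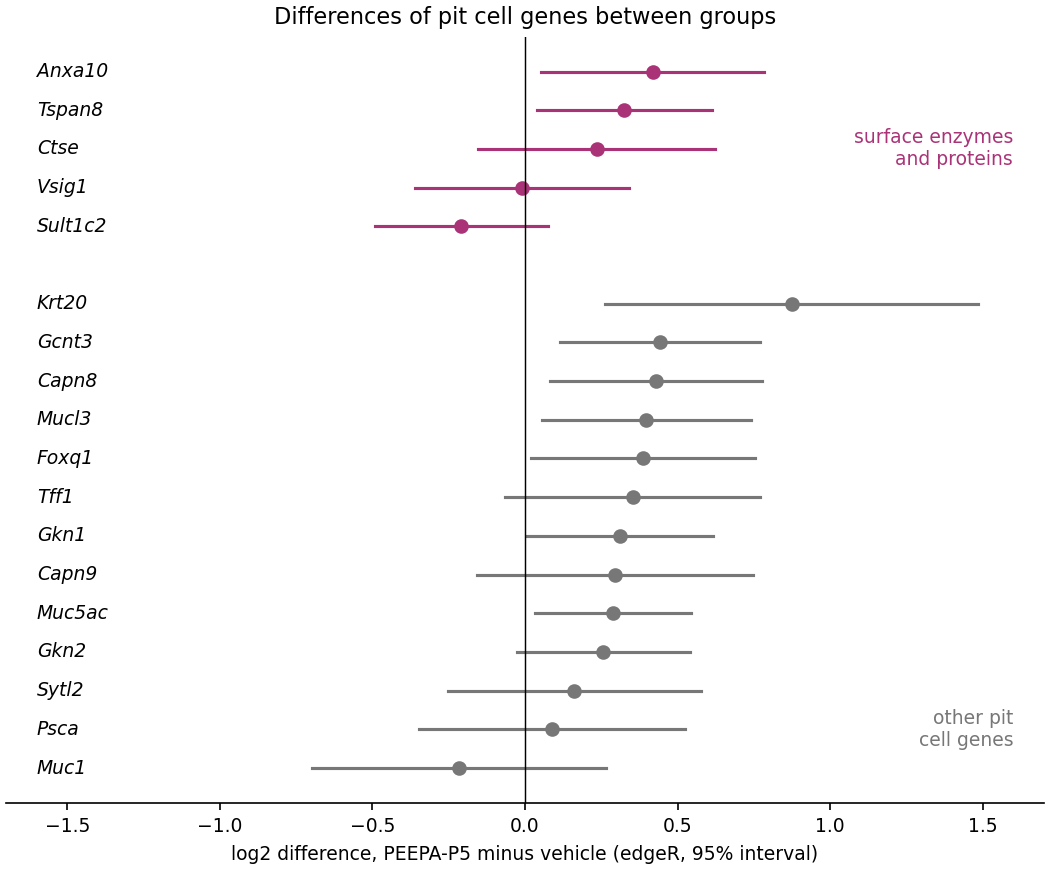
Log2 difference between PEEPA-P5 and vehicle (horizontal axis, edgeR, with 95% intervals) for the 5 tested genes and 13 other pit cell genes, ordered by size. The intervals of Anxa10 and Tspan8 lie above 0 before adjustment, Vsig1 sits at 0, and Sult1c2 lies at -0.21 beside Muc1 at -0.22.

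The proteases come first. Ctse was at 3288, 3107 and 2206 TPM in vehicle 1, 2 and 3 and at 2992, 2944 and 3359 TPM in PEEPA-P5 1, 2 and 3. The groups overlapped, with vehicle 3 the lowest and PEEPA-P5 3 the highest library. The log2 difference was 0.23 with a standard error of 0.16 (edgeR adjusted p = 0.559), and its 95% interval, from -0.15 to 0.62, spans a fold of 0.899 to 1.54. An exact two-sided permutation test over the libraries gave p = 0.3 (n = 3 each). Without both libraries numbered 3 the difference was 0.00 (0.0029). Cym had 0, 28 and 8 counts in the vehicle libraries 1 to 3 and 0, 2 and 0 counts in the PEEPA-P5 libraries 1 to 3. Its highest level, 1.67 CPM (not scaled between libraries) in vehicle 2, had an exact Poisson interval of 1.11 to 2.41, which covers counting error only. By the limit of 3 counts, a count of 0 allows up to 0.178 CPM in vehicle 1, 0.181 in PEEPA-P5 1 and 0.182 in PEEPA-P5 3. The vehicle libraries thus differed from each other beyond counting error, since the lower bound of vehicle 2 lies above the limit for vehicle 1. Cym did not pass the filter, and with no filter its adjusted p was 0.470 (edgeR).

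Of the surface proteins, Tspan8 lay higher with PEEPA-P5 in every library and Vsig1 was nearly level. Tspan8 was at 1047, 1066 and 801 TPM in vehicle 1, 2 and 3 and at 1095, 1125 and 1146 TPM in PEEPA-P5 1, 2 and 3. Every PEEPA-P5 library lay above every vehicle library, in TPM and in CPM. The coefficient of variation of TPM was 2.32% with PEEPA-P5 and 15.2% with vehicle. In CPM the order turned, at 10.3% with PEEPA-P5 and 8.02% with vehicle. Its CPM averaged 1178 ± 122 under PEEPA-P5 and 940 ± 75.4 under vehicle (SD, n = 3 each). The log2 difference was 0.33 with a standard error of 0.12, a fold of 1.25 with a 95% interval of 1.03 to 1.53 (edgeR unadjusted p = 0.0315, adjusted p = 0.412). The exact permutation test gave p = 0.1, the smallest that 3 against 3 libraries allow (two-sided). An antisense gene, 4930422I22Rik, overlaps Tspan8 in the GENCODE M21 annotation, and no label or header states whether reads were counted by strand. Of 1728 annotated 31-base stretches of Tspan8, read on either strand, 1 also occurs in another gene, Mark2. The annotated transcripts of Tspan8 and 4930422I22Rik thus share no such stretch. Reads outside annotated transcripts were not examined. Vsig1 was at 499, 647 and 529 TPM in vehicle 1, 2 and 3 and at 463, 484 and 544 TPM in PEEPA-P5 1, 2 and 3. The groups overlapped, with PEEPA-P5 3 above vehicle 1 and vehicle 3. The log2 difference of CPM was -0.01 with a standard error of 0.15 (edgeR adjusted p = 0.981), and the 95% interval of the fold was 0.779 to 1.27. Its sign turned in 5 of 17 alternative analyses.

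Anxa10 had the largest log2 difference of the 5. It was at 1076, 1219 and 904 TPM in vehicle 1, 2 and 3 and at 1121, 1360 and 1448 TPM in PEEPA-P5 1, 2 and 3. In TPM the groups overlapped, since PEEPA-P5 1 lay below vehicle 2. In CPM they did not: the values were 1673, 1701 and 1565 with vehicle and 1810, 2131 and 2659 with PEEPA-P5. The log2 difference was 0.42 with a standard error of 0.16, a fold of 1.34 with a 95% interval of 1.04 to 1.72 (edgeR unadjusted p = 0.0304, adjusted p = 0.412). The exact two-sided permutation test again gave 0.1 (n = 3 each). The highest value was that of PEEPA-P5 3, the library with the lowest parietal and fibroblast markers, and without it the difference was 0.26. Without both libraries numbered 3 it was 0.23.

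Sult1c2 lay on the other side. It was at 499.9, 641 and 549 TPM in vehicle 1, 2 and 3 and at 478, 442 and 439 TPM in PEEPA-P5 1, 2 and 3. In TPM all PEEPA-P5 libraries were below all vehicle libraries. In CPM the groups overlapped, at 592, 682 and 725 with vehicle and 588, 528 and 615 with PEEPA-P5, because PEEPA-P5 3 lay above vehicle 1. The log2 difference was -0.21 with a standard error of 0.12, a fold of 0.866 with a 95% interval of 0.712 to 1.05 (edgeR adjusted p = 0.495). The exact two-sided permutation test gave p = 0.2 (n = 3 each). On log2(TPM + 1) the difference was -0.31 (limma unadjusted p = 0.0332, adjusted p = 0.486). The difference was below 0 in 17 of 17 alternative analyses, and PEEPA-P5 was lower in 3 of 3 libraries of like number. Of its annotated 31-base stretches, 2.04% also occur in other transcripts, mostly in the pseudogene Sult1c2-ps2. Of the other genes described here Ctse shared 0.316%, Tspan8 0.0579% and Cym, Vsig1 and Anxa10 0%.

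The 13 other pit cell genes, for secreted products and cytoplasmic proteins, give the level against which these can be read. Of them 12 were higher and 1 lower, with a median log2 difference of 0.31. At an unadjusted p under 0.05, 7 were higher and 0 lower, beside 5.92% and 6.14% of all genes tested. The groups did not overlap in 9, all higher, where 9.74% of all genes were separate in that direction. The list was chosen with earlier results of these data known, so these counts are descriptions and not a test. Krt20, a keratin filament gene of mature pit cells, had 1088 ± 249 CPM under PEEPA-P5 against 594 ± 192 under vehicle (SD, n = 3 each). Gcnt3, which branches mucin sugars, was at 800.1 ± 121 against 588.5 ± 49.7 CPM, and Capn8, a stomach calpain, at 432 ± 78.3 against 321 ± 26.0 CPM. Mucl3, a mucin-like membrane protein, was at 14642 ± 1772 against 11112 ± 1449.9 CPM. Tff1 and Gkn2, the most abundant of the list by TPM, had unadjusted p of 0.0857 and 0.0704 (edgeR). Muc1, a membrane mucin, was the lower gene, at 520.0 ± 74.1 against 604 ± 162 CPM. On log2(TPM + 1) 11 of the 13 were higher and 2 lower. None passed the adjusted threshold. With 1 library left out, the 7 became 2 without vehicle 2, 4 without vehicle 3, PEEPA-P5 1 or PEEPA-P5 3, and 5 without vehicle 1 or PEEPA-P5 2, and it became 2 without both libraries numbered 3.

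Set against the mean log2 CPM of those 13 genes within each library, Tspan8 was level and Sult1c2 and Vsig1 were lower. Tspan8 stood at -1.37, -1.27 and -1.50 in vehicle 1, 2 and 3 and at -1.36, -1.33 and -1.41 in PEEPA-P5 1, 2 and 3, a difference between groups of 0.01. Anxa10 differed by 0.09 and Ctse by -0.08, both less than 1 pooled SD (0.15 and 0.13), with overlapping groups. Sult1c2 stood at -2.15, -1.71 and -1.76 with vehicle and -2.27, -2.40 and -2.51 with PEEPA-P5. Its difference of -0.52 was larger than the pooled SD of 0.19, and all PEEPA-P5 libraries were below all vehicle libraries. Vsig1 stood at -1.62, -1.20 and -1.30 with vehicle and -1.76, -1.72 and -1.64 with PEEPA-P5, a difference of -0.33 with a pooled SD of 0.16, and the groups were separate by a small margin. Against Epcam, an epithelial adhesion protein, Sult1c2 again differed by -0.54 with separate groups, and Vsig1 by -0.35 with overlapping groups. Epcam was itself not even, at 93.4 TPM in vehicle 3 against 140 and 144 TPM in vehicle 1 and 2. It averaged 221 CPM with vehicle and 275 CPM with PEEPA-P5, and its evenness over epithelial cell types was not tested. When single libraries were left out, the differences against Epcam ran from -0.71 (without vehicle 1) to -0.35 (without vehicle 3) for Sult1c2 and from -0.51 (without vehicle 1) to -0.18 (without vehicle 3) for Vsig1. Against the pit cell genes the differences then lay between -0.66 and -0.44 for Sult1c2 and between -0.46 and -0.24 for Vsig1. Both references were themselves higher with PEEPA-P5: 12 of the 13 genes were higher (median log2 difference 0.31), and Epcam differed by 0.32. A gene that is level between groups therefore comes out lower on these scales. On its own Vsig1 differed by -0.01 and Sult1c2 by -0.21. The share of all genes that separate on these scales was not computed. These relative values are descriptions without a test.

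**Figure D3:**
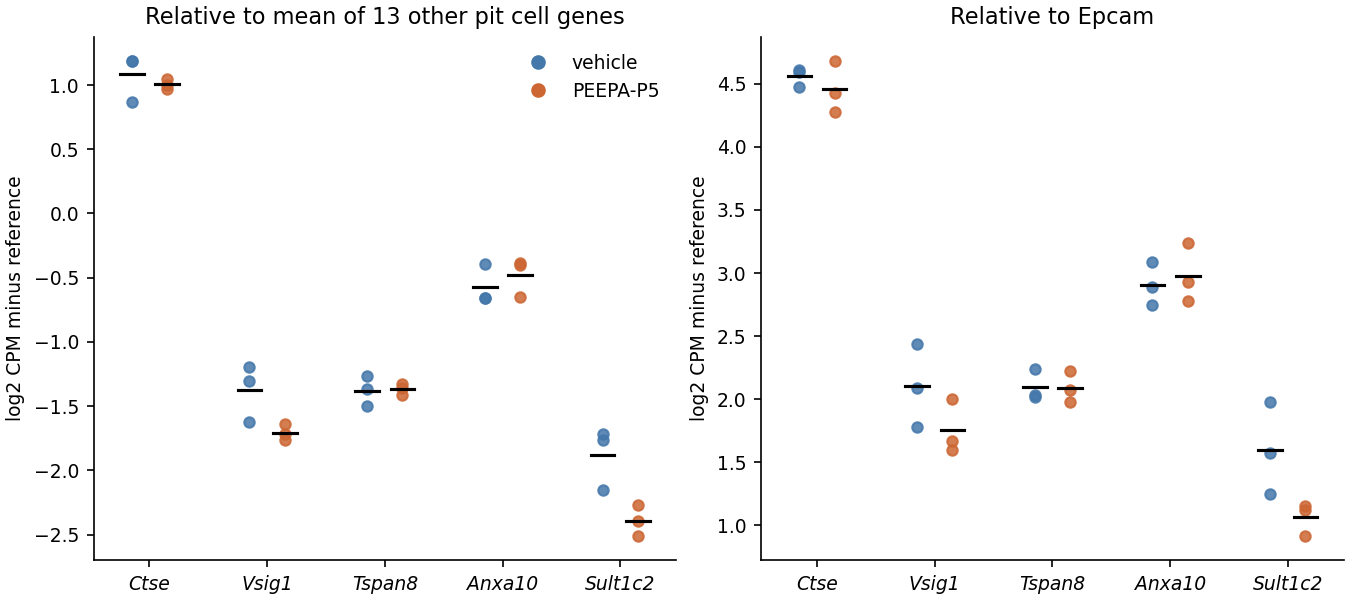
Log2 CPM of each gene minus the mean log2 CPM of 13 other pit cell genes (left) or minus log2 CPM of Epcam (right), with 1 point per library and a bar at the group mean. Sult1c2 is separate between groups in both panels (differences of -0.52 and -0.54), and Tspan8 has nearly equal means (0.01 and -0.01). Both references were themselves higher with PEEPA-P5.

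Ratios of TPM between the genes, taken from the same values, separated the groups for some pairs and not for others. The ratio of Anxa10 to Sult1c2 was 2.15, 1.90 and 1.65 for libraries 1 to 3 of the vehicle group, below the 2.35, 3.08 and 3.30 for libraries 1 to 3 of the PEEPA-P5 group. The ratio of Tspan8 to Sult1c2 was 1.74 ± 0.33 with vehicle and 2.48 ± 0.17 with PEEPA-P5, and that of Vsig1 to Anxa10 was 0.526 ± 0.061 and 0.382 ± 0.029 (SD, n = 3 each). The groups did not overlap in any of these 3 ratios, nor in that of Vsig1 to Tspan8. Each of these ratios pairs Anxa10 or Tspan8 with Sult1c2 or Vsig1, so they restate the same differences in TPM. The share of all gene pairs whose ratio separates the groups was not computed. By contrast Tspan8 to Anxa10 was 0.911 ± 0.054 and 0.865 ± 0.098, and Vsig1 to Sult1c2 was 0.990 ± 0.024 and 1.102 ± 0.14, both overlapping. The ratios of Ctse to Vsig1, Tspan8, Anxa10 and Sult1c2 overlapped as well. Across the 6 libraries Tspan8 and Anxa10 had Pearson r = 0.92 (exact permutation p = 0.00556, adjusted p = 0.0556 over 10 pairs of genes) and Spearman rho = 0.89 (exact permutation p = 0.0333, adjusted p = 0.292). Without the 2 libraries farthest from the median of Tspan8, r was 0.68. Ctse and Tspan8 had r = 0.91 (exact permutation p = 0.0181, adjusted p = 0.0903) and rho = 0.83 (exact permutation p = 0.0583, adjusted p = 0.292), and r was 0.46 without the 2 libraries farthest from the median of Ctse. No pair passed 0.05 after adjustment.

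The genes most like each of the 5 were sought among 8303 other genes of at least 10 CPM, by Pearson r of log2 CPM over the 6 libraries. Ctse ran closest to Fut2 (r = 0.996), a fucosyltransferase, and Slc35c1 (r = 0.994), a GDP-fucose transporter. Fut2 had 287 ± 52.4 CPM under PEEPA-P5 and 247 ± 37.0 under vehicle (SD, n = 3 each). Tspan8 ran closest to Ubap1 and Plekhb2 (r = 0.997 each), and Anxa10 to Chd3 (r = 0.995) and Ahnak (r = 0.993). Ahnak, a very large membrane-associated protein, had 816 ± 220 CPM under PEEPA-P5 and 563 ± 33.1 under vehicle. Vsig1 ran closest to Rnft1 (r = 0.995) and Fbxl20 (r = 0.988), and Sult1c2 to Dhx40 (r = 0.997) and Ddx46 (r = 0.993), both helicase genes. An r of at least 0.95 was reached by 249 genes for Tspan8, 124 for Ctse, 68 for Anxa10, 35 for Vsig1 and 24 for Sult1c2. With 6 libraries that share depth and makeup, and the best chosen from all genes searched, these values are descriptions only.

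Within their gene families, Anxa10, Tspan8 and Sult1c2 were the most abundant members by TPM. Anxa10 made up 43.5% to 49.99% of the summed TPM of 12 annexin genes, Tspan8 36.4% to 39.5% of 29 tetraspanin genes and Sult1c2 51.9% to 65.9% of 8 cytosolic sulfotransferase genes. Those shares overlapped between groups for all of Anxa10, Tspan8 and Sult1c2. For Sult1c2 they were 56.1%, 65.9% and 64.2% with vehicle and 58.8%, 55.5% and 51.9% with PEEPA-P5. Vsig1 was second to Vsig2 among 14 junctional immunoglobulin genes, at 31.8% to 41.6%. Ctse ranged from 3.11% to 57.1% of 9 aspartic protease genes, as Pgc, the pepsinogen C gene of chief and gland cells, ran from 2065 TPM in PEEPA-P5 3 to 68237 TPM in vehicle 3.

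Over all genes tested, 49.4% had a log2 difference above 0, and 5.92% were higher and 6.14% lower at an unadjusted p under 0.05. These shares stand beside every list that follows. Of 11 other tested annexins, 9 were higher and 2 lower with PEEPA-P5, with a median log2 difference of 0.31. At an unadjusted p under 0.05, 5 were higher and 0 lower, and this was 2 without vehicle 2 or vehicle 3, 3 without PEEPA-P5 3 or with the replicate block, 2 on log2(TPM + 1), and 1 without both libraries numbered 3, with a median there of 0.17. Anxa5 was at 135 ± 4.15 against 90.9 ± 22.4 CPM, Anxa2 at 749 ± 67.6 against 510.1 ± 124 CPM, Anxa7 at 345 ± 85.03 against 240.1 ± 29.1 CPM and Anxa3 at 340 ± 57.1 against 255 ± 18.8 CPM (PEEPA-P5 against vehicle, SD, n = 3 each). Other tetraspanins were mixed, with 14 higher and 10 lower of 24, a median of 0.19 (-0.0021 without both libraries numbered 3), and 4 higher and 1 lower at an unadjusted p under 0.05. The 4 became 2 without vehicle 2, vehicle 3 or PEEPA-P5 1, with total counts alone or on log2(TPM + 1), and 7 without vehicle 1, and the median was 0.09 without PEEPA-P5 3. Tspan13 was at 280.2 ± 25.8 against 188 ± 38.5 CPM and Tspan3 at 226 ± 33.0 against 130.3 ± 47.8 CPM, whereas Tspan33 was at 6.34 ± 0.83 against 15.95 ± 7.80 CPM. Known partners of tetraspanins were higher in 6 of 7, with 3 at an unadjusted p under 0.05: Cldn7, a tight-junction claudin, at 22.8 ± 6.15 against 12.01 ± 2.73 CPM, Itga3, a laminin-binding integrin chain, at 266 ± 17.7 against 210.1 ± 24.0 CPM, and Epcam at 275 ± 10.01 against 221 ± 33.1 CPM. These 3 became 1 without vehicle 2, vehicle 3 or PEEPA-P5 1, with total counts alone or on log2(TPM + 1), and the median of the 7, 0.32, was 0.15 without vehicle 3.

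Other genes of junctional immunoglobulin proteins were higher in 9 of 12, with a median of 0.16, where 49.4% of all genes were higher. At an unadjusted p under 0.05 there was 1 of the 12, beside 12.1% of all genes. It was the scarce Vsig8, at 3.001 ± 0.92 against 1.23 ± 0.73 CPM. With total counts alone and on log2(TPM + 1) the split was 6 higher and 6 lower, with medians of 0.06 and 0.04, and without vehicle 2 the median was 0.09. Vsig2, the close stomach relative of Vsig1, was at 719 ± 152 against 615 ± 63.9 CPM. Among 9 other genes of sulfotransferases and PAPS supply, 7 were higher and 2 lower, with a median of 0.22, which was 0.11 without PEEPA-P5 3 and on log2(TPM + 1), and 0.04 without both libraries numbered 3. Papss1, which makes the sulfate donor, was at 125 ± 23.6 against 87.5 ± 13.8 CPM, and Sult1a1, a phenol sulfotransferase, at 1.13 ± 0.48 against 2.45 ± 0.88 CPM, with an unadjusted p under 0.05 for each. Without vehicle 3 none of the 9 had such a p. Of 5 other tested aspartic proteases 1 was higher and 4 lower, with a median of -0.69 (-0.26 without vehicle 2), and both with an unadjusted p under 0.05 were pepsinogens: Pgc at 6654 ± 3611 against 38473 ± 40018 CPM and Pga5 at 6.74 ± 3.60 against 17.1 ± 9.53 CPM, with overlapping groups. These 2 became 0 with the replicate block, with no filter on low counts, without vehicle 3, without PEEPA-P5 1 and without PEEPA-P5 3. Of 12 other cathepsins and cystatins, 7 were higher and 5 lower, with a median of 0.07 that turned to -0.02 with total counts alone, to -0.04 on log2(TPM + 1) and to -0.01 without vehicle 3. Ctsz, a lysosomal cysteine protease, was at 147 ± 8.06 against 108 ± 17.8 CPM and Ctsf at 2.28 ± 1.01 against 5.93 ± 1.501 CPM. No gene of these lists passed the adjusted threshold.

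**Figure D4:**
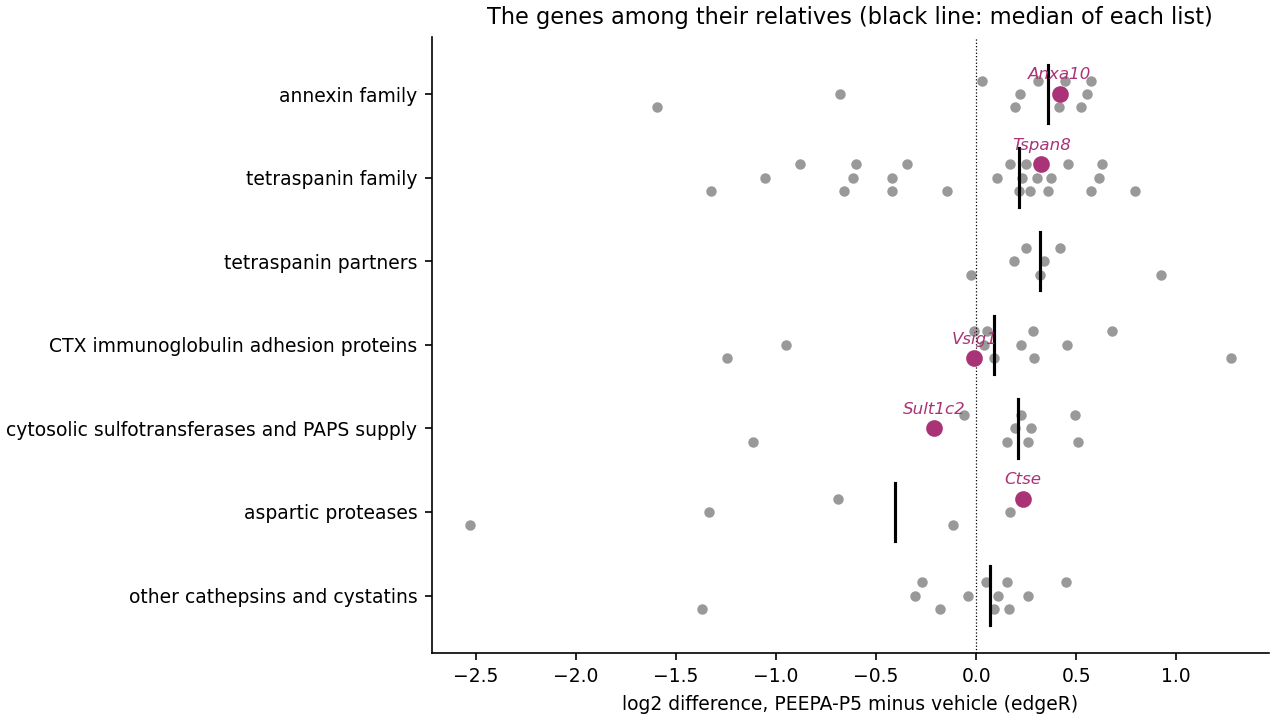
Log2 difference between PEEPA-P5 and vehicle (horizontal axis, edgeR) for the tested genes of 7 lists, with 1 point per gene, the genes described here named and coloured, and a black line at each list's median. Anxa10 (0.42) lies among the other annexins, Sult1c2 (-0.21) below the median of its list but above Sult1a1 (-1.12), and Ctse (0.23) above the median of its list.

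The data were also processed in 17 other ways, and the difference was above 0 in 17 of 17 for Anxa10, Tspan8 and Ctse. The smallest adjusted p over these alternatives was 0.197 for Anxa10, 0.204 for Tspan8, 0.350 for Sult1c2, 0.404 for Ctse and 0.633 for Vsig1.

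**Figure D5:**
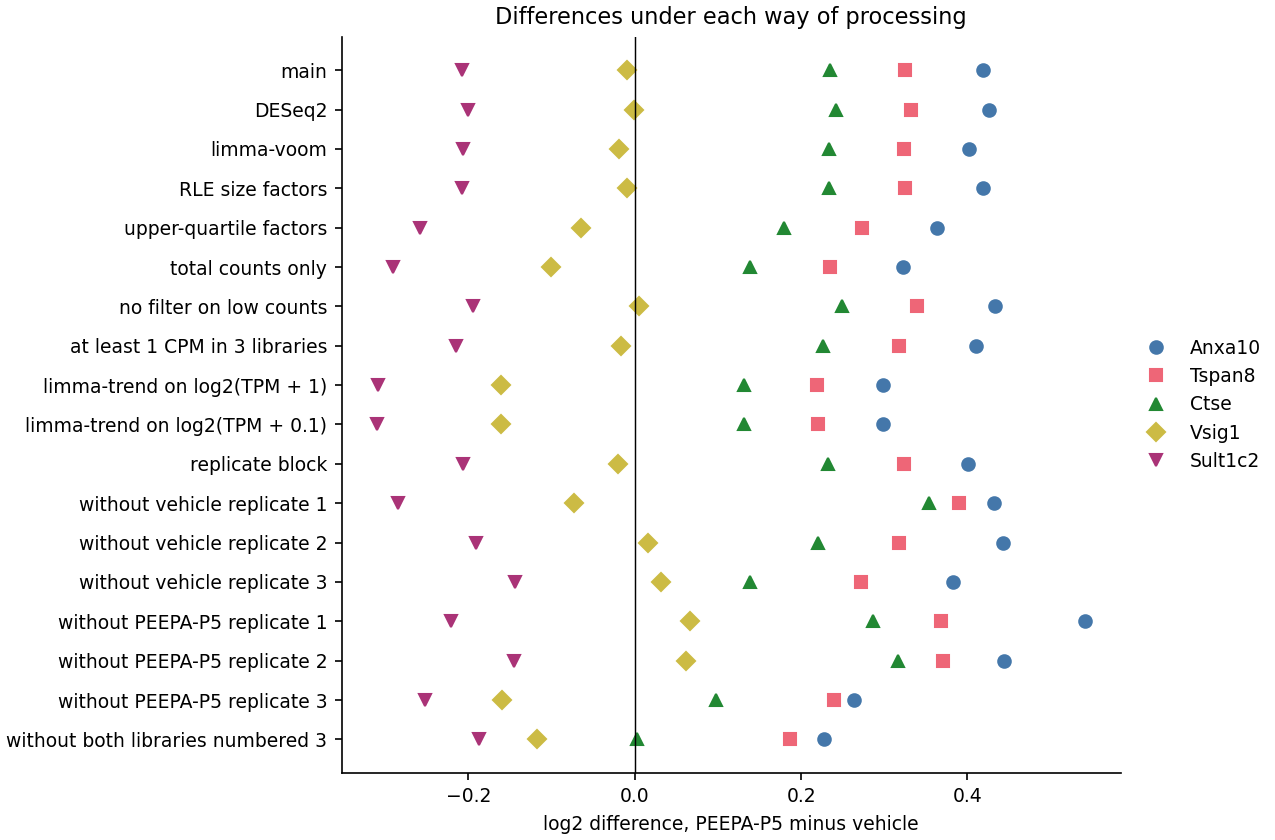
Log2 difference of each gene (horizontal axis) under the main analysis and 17 alternatives (vertical axis, 1 row each). Anxa10 runs from 0.23 to 0.54 and Sult1c2 from -0.31 to -0.14, and Vsig1 lies on both sides of 0.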

How the data were processed

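Per the submitters' processing notes, Bowtie2 2.2.5, RSEM 1.2.12 and build mm9 were used, with roles and settings not given in the sources used here. The authors deposited an expected count, an FPKM and a TPM value per gene and library. The deposited expected counts are not normalized, 9.82% were not whole, and all were rounded before testing. The deposited TPM values are scaled by the authors to transcript length and a fixed sum, and the deposited FPKM values to length and library size.

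Counts were tested with edgeR 4.0.16 (R 4.3.3), using TMM factors, its expression filter and the quasi-likelihood test in robust form, on all 13071 genes that passed, with Benjamini-Hochberg adjustment at 0.05. CPM used TMM-scaled totals, and log2 CPM a prior count of 2. The fit was run on simulated data with changes larger than the differences of the genes described here, so it does not show how the fit does at their size. Members and lists were chosen with earlier results of these data known. Genes named from a list had an unadjusted p under 0.05 (at most 4, by smallest p) or were among the 2 with the highest mean TPM; from the list of other pit cell genes, Muc1 was added after its value was seen, and not all genes taken by the rule are named. Predicted models and Rik clones were left out of the search for the most alike genes.

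The alternatives were DESeq2 1.42.0, limma-voom and limma-trend (limma 3.58.1), other factors and filters, a block on replicate number and left-out libraries. Deviations from group means correlated at 0.237, 0.346 and 0.235 between libraries 1, 2 and 3 of both groups. Between libraries of unlike number the values ran from -0.349 to 0.176. The numbers in the titles were therefore taken as possible pairs, from the data and not the labels, which is weak ground with so few libraries. Sequences came from RefSeq promoters of GRCm38.p6, and shared stretches of 31 bases from GENCODE M21, a later build than mm9.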

Additional observations from a re-analysis of the deposited data

How the results depend on the processing

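The number of genes past the adjusted threshold was 0 in all analyses except DESeq2, with 110, and leaving out single libraries, with 0 to 1 (1 without vehicle 1). The number at an unadjusted p under 0.05 ran from 717 (without vehicle 2) to 2070 (without vehicle 1), with 759 without vehicle 3 and 1008 without PEEPA-P5 1. The log2 difference of Vsig1 turned sign, to 0.0052, without a filter on low counts, and ran from -0.16 to 0.066 with a library left out. With a library left out the difference ran from 0.26 to 0.54 for Anxa10, from 0.24 to 0.39 for Tspan8, from 0.10 to 0.35 for Ctse and from -0.28 to -0.14 for Sult1c2. The causes were not tested. With the replicate number as a block the differences were 0.40 for Anxa10, 0.32 for Tspan8, 0.23 for Ctse, -0.02 for Vsig1 and -0.21 for Sult1c2. The block left 0 genes past the adjusted threshold and 1788 at an unadjusted p under 0.05, and changed no adjusted call, while the unadjusted p of Anxa10 and Tspan8 became 0.0567 and 0.0649. On log2(TPM + 0.1) the median of all genes was -0.10, so differences in TPM lie lower than those in scaled CPM. Depth limits the values of Cym, at no more than 28 counts.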
